A study of Mus musculus with 4 samples.

Results

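The genes described here encode potassium channel subunits. They are the protein-coding genes whose symbol starts with Kcn, other than Kcnj10, with a total of at least 10 counts over all 4 libraries, and 75 of 93 such genes in the count table met that minimum. Of the 18 below it, 11 had no count in any library and 7 had between 4 and 9 in all. Just outside were Kcne2, Kcne3 and Kcnmb2 with a total of 9 each, and just inside was Kcnj6 with 12. By subunit type the 75 were 12 inward rectifier, 32 voltage-gated, 10 two-pore-domain and 8 genes of calcium- or sodium-activated channels and their relatives, which encode pore-forming or silent alpha subunits, and 13 auxiliary or regulatory genes, whose proteins join such channels or their assembly. The selection rests on names in the mm10 annotation and not on measured currents.

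The libraries came from C57BL/6 mouse cortical astrocytes of 2 labelled genotypes, wild type and Npas3-/-, with 2 libraries each. The question of the design is how the transcripts of astrocytes change when Npas3, a transcription factor of the bHLH-PAS family that is expressed in the brain, is lost. Both genotypes were grown alike from cortex of postnatal day 0, were shaken during the first week to remove other cells, and were harvested at day 14 in vitro with no treatment. The labels give neither the Npas3 allele nor the animals or cultures behind each library, so the p-values below reflect only the spread between these libraries, which could be technical.

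Potassium channels let potassium cross the membrane down its electrochemical gradient and hold the resting potential near the potassium equilibrium. Astrocytes are known for a large, nearly voltage-independent potassium conductance, carried mostly by inward rectifiers of the Kir4 type together with two-pore-domain leak channels, with which they take up potassium released by active neurons. Cultured astrocytes also carry delayed-rectifier and A-type voltage-gated currents.

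The libraries held between 82965565 and 86932708 counts over genes. For Npas3 itself 5129 and 8739 wild-type counts stood against 2055 and 1386 in Npas3-/- (log2 fold change -1.82; Benjamini-Hochberg adjusted p = 0.0181 by the edgeR quasi-likelihood test). That check covers the whole gene and not a deleted exon, and it was lost with the correction described next (-0.57; adjusted p = 0.154). Across 18817 tested genes the log2 fold change ran with transcript GC content (Spearman rho 0.67) and against transcript length (rho -0.38), so the main results below are also given from a fit that removes the trend of each library with GC content and length. That fit moved the median log2 fold change of all tested genes from -0.07 to 0.09, and it would also remove a true difference that follows GC content. Summed astrocyte markers, 10 of 10 detected, lay between 3469 and 4993 CPM (counts scaled to library size) in the 4 libraries. The list did not move as one: by edgeR Aldoc (log2 fold change 2.22) and Gfap (1.57) rose, Aqp4 (-4.01), Gja1 (-2.58), Slc1a2 (-2.48) and Kcnj10 (-2.29) fell, and 4 were not called. All of these calls but that of Slc1a2 were also made with the correction. Sums of other cell types were 186 to 329 CPM for 14 neuronal markers, of which Slc17a6 and Slc32a1 had no count, 47.4 to 71.3 CPM for 11 microglial markers and 12.03 to 17.3 CPM for 8 endothelial markers. Oligodendrocyte-lineage markers, 12 with Mog at 0, summed to 1503 to 2199 CPM, 10 fibroblast markers to 303 to 402 and 6 ependymal markers, with Tmem212 at 0, to 259 to 642. The 10 mural markers summed to 690 CPM in wild-type replicate 2 and to 2195 to 2554 in the other libraries. In bulk RNA, fewer cells of a type and less RNA per cell cannot be told apart.

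The channel genes together took 61849 and 73407 of the wild-type counts and 49527 and 45234 of those in Npas3-/-. Levels were compared between genes as CPM per kilobase of merged exons. Of the 75 genes, 43 averaged at least 1 CPM. Per kilobase, the 5 most abundant genes held 47.0% to 51.8% of the summed level in a library, and the 10 most abundant 64.6% to 70.4%. The order was led in both genotypes by Kcnk1, a two-pore-domain channel, at a mean of 31.7 CPM per kilobase in wild type and 32.6 in Npas3-/-. Kcne1l, a single-pass accessory subunit, followed at 27.6 and 11.4. Next in wild type came Kcnc1, a voltage-gated subunit of fast delayed rectifiers, at a mean of 10.7 in wild type and 5.03 in Npas3-/-. The two-pore-domain gene Kcnk10 followed at 9.01 and 8.17. In the first wild-type library these neighbours lay close to each other, Kcnc1 at 9.71 and Kcnk10 at 9.65. In Npas3-/- Kcnab2 took place 3, a cytoplasmic beta subunit gene that was in place 17 in wild type, and Kcnc1 was in place 9. This order depends on the length used. Per kilobase of the longest protein-coding transcript, Kcnn3 at 20.2 and Kcnip1 at 17.6 stood above Kcnc1 at 13.0 in wild type.

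**Figure D1:**
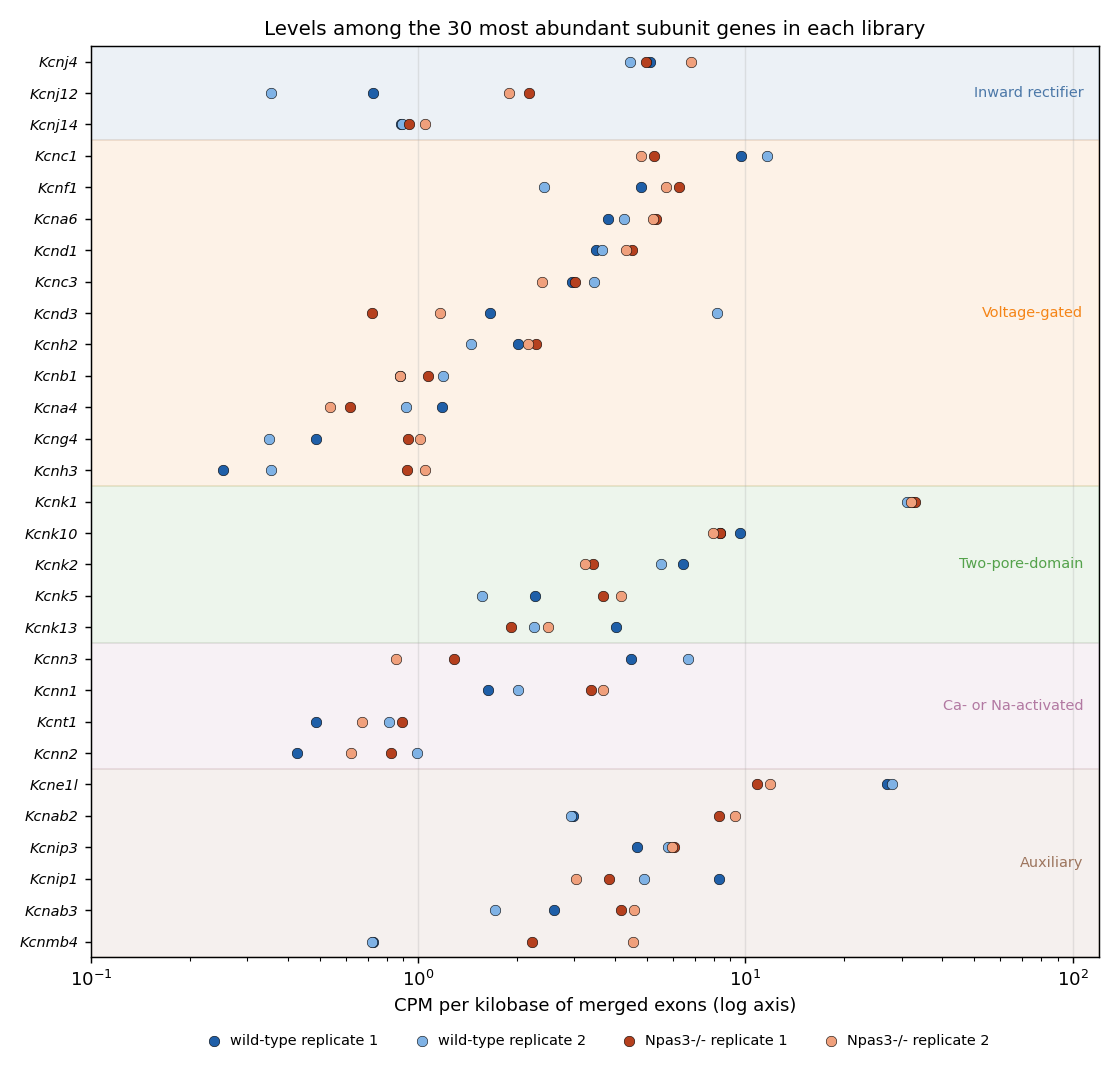
Levels among the 30 most abundant potassium channel subunit genes in each of the 4 libraries, as CPM per kilobase of merged exons on a log axis, with 1 point per library and genes grouped by subunit type. Kcnk1 lies at nearly the same level in all 4 libraries, Kcne1l, Kcnc1 and Kcnn3 lie lower in both Npas3-/- libraries, and Kcnab2 and Kcnmb4 lie higher in both.

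Split by subunit type, the two-pore-domain genes made up 35.2% and 30.5% of the summed level of the wild-type libraries, against 37.4% and 36.3% in Npas3-/-. Auxiliary genes made up 29.9% and 27.9% against 25.7% and 28.3%, and voltage-gated genes 24.1% and 29.3% against 24.7% and 22.9%. The inward rectifiers other than Kcnj10 were a small share, 6.14% and 5.30% against 7.30% and 7.98%, above wild type in both Npas3-/- libraries. Calcium- and sodium-activated genes were at 4.64% and 6.94% against 4.90% and 4.601%, so that the genotypes overlapped. That last overlap depends on the length used: per kilobase of the longest protein-coding transcript the shares were 10.2% and 15.005% against 7.54% and 6.57%, with no overlap. Kcnj10, the main astrocyte inward rectifier and the gene left out of the set, stood at 72.1 and 97.6 CPM per kilobase in wild type but at 21.6 and 13.1 in Npas3-/-. With it added, it would be 31.4% and 37.6% of the whole in wild type and 13.4% and 8.51% in Npas3-/-, while the sum of the 75 genes was 158 and 162 CPM per kilobase against 139 and 141.

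**Figure D2:**
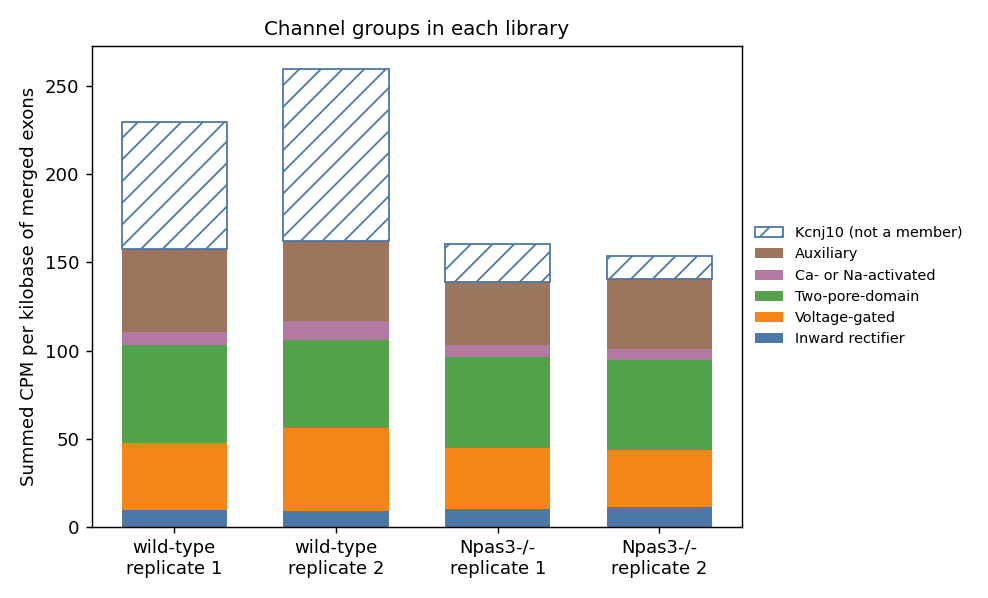
Summed CPM per kilobase of merged exons of the 5 subunit types in each library (stacked bars from 0), with Kcnj10, which is not a member, hatched on top. The coloured stack reaches 158 and 162 in wild type and 139 and 141 in Npas3-/-, and the hatched part measures 72.1 and 97.6 against 21.6 and 13.1.

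In the comparison of Npas3-/- with wild type, 67 of the 75 genes passed the filter on low counts and 8 (Kcne4, Kcnrg, Kcnj8, Kcnj5, Kcnj6, Kcnk7, Kcng3 and Kcnb2) did not. By edgeR's quasi-likelihood test at an adjusted p below 0.05, 5 of the 67 rose, 15 fell and 47 were not called. The share called was 29.9%, beside 33.1% of all 18838 tested genes. Higher calls were 7.46% of the channel genes and 11.6% of all tested genes, and lower calls were 22.4% and 21.5%. A share of this size is close to the background and is no result about channels as a class. Their median log2 fold change was -0.24, against -0.07 over all tested genes, and the 3 genes at 0 in both Npas3-/- libraries lie below it also at their bounds. By subunit type the medians were 0.16 for inward rectifiers, -0.87 for voltage-gated, -0.14 for two-pore-domain, -0.37 for calcium- or sodium-activated and -0.74 for auxiliary genes, and with the correction -0.42, -0.30, -0.22, -0.01 and -0.51. The 47 genes not called ranged from -4.33 to 1.58. Of the 15 that fell, 14 differed by at least 2-fold, and so did all 5 that rose. The genotypes did not overlap in 49 of the 67, 20 higher and 29 lower in both Npas3-/- libraries, beside 35.7% and 40.1% of all tested genes and 75.8% for both together. DESeq2 called 9 channel genes higher and 21 lower, where it called 18.7% and 25.7% of all genes and 44.4% in either direction. Without wild-type replicate 2 the calls were 3 higher and 6 lower, and without Npas3-/- replicate 1 they were 2 and 6. Without Npas3-/- replicate 2 edgeR called none, with a smallest adjusted p of 0.0798 and 25 channel genes at an unadjusted p below 0.05, while DESeq2 called 1 higher and 11 lower.

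With the GC and length correction 2 channel genes were called higher (Kcnab2 and Kcnk10) and 4 lower (Kcne1l, Kcnn3 and Kcnc1 among them), 8.96% of the set beside 8.79% of all tested genes. The background was 5.71% for higher and 3.08% for lower calls. Called the same way in both fits were 5 channel genes, of which Kcnab2 was higher and 4, with Kcne1l, Kcnn3 and Kcnc1 among them, were lower. Among all tested genes 5.32% were called the same way in both, 2.45% higher and 2.87% lower. The median of the channel genes was -0.39 after correction, while that of all genes was 0.09. In the corrected fit 1 higher and 3 lower calls were made without wild-type replicate 2. Without Npas3-/- replicate 1 or without replicate 2, each of which leaves a single library of that genotype, the corrected edgeR fit called no gene at all, channel or other.

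**Figure D3:**
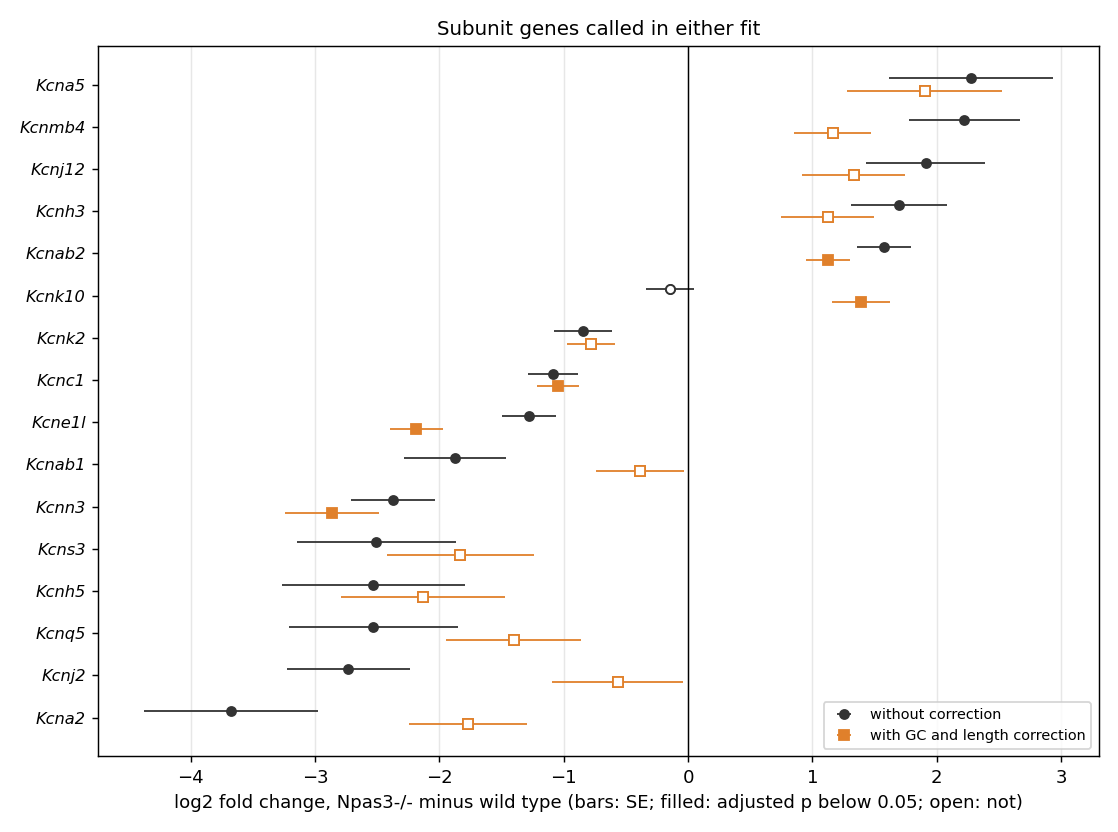
Log2 fold change (Npas3-/- minus wild type) of channel genes called in either fit, without (circles) and with (squares) the GC and length correction; bars are the SE, filled symbols have an adjusted p below 0.05, and 4 called genes with 0 counts in an Npas3-/- library (Kcnip4, Kcnma1, Kcna3 and Kcnt2) are among those not drawn. Kcnab2, Kcne1l, Kcnn3 and Kcnc1 keep filled symbols on one side of 0 in both fits, whereas Kcnj2 and Kcnab1 move to near 0.

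Inward rectifiers have pores that pass potassium more easily into the cell than out of it. By edgeR 1 of 9 tested genes rose (11.1%) and 1 fell (11.1%), beside 11.6% and 21.5% of all tested genes. Kcnj2, Kcnj12, Kcnj4 and Kcnj14 encode the Kir2 subunits, known for strong rectification, and the first of them went opposite to the second. Kcnj2 (ENSMUSG00000041695.2, chromosome 11, 111066164 to 111076821, plus strand) had 6.67 and 5.27 CPM in the wild-type libraries, against 1.19 and 0.597 in the Npas3-/- libraries. Both Npas3-/- libraries were far below both wild-type libraries, and the mean fell from 5.97 ± 0.9902 to 0.896 ± 0.423 CPM (SD, n = 2), or to 15.02% of wild type (log2 fold change -2.73, SE 0.49; adjusted p = 0.0186, by the edgeR test). Kcnj12 (ENSMUSG00000042529.14, chromosome 11, 61022564 to 61071131, plus strand) was lowly expressed in wild type, with 2.005 and 0.972 CPM in the wild-type libraries, against 5.999 and 5.21 in the Npas3-/- libraries. It was higher in both Npas3-/- libraries, and its mean rose from 1.49 ± 0.7301 to 5.603 ± 0.5595 CPM (log2 fold change 1.91, SE 0.48; adjusted p = 0.0355). Neither call was kept with the correction, where Kcnj2 was at -0.56 (SE 0.53; adjusted p = 0.519) and Kcnj12 at 1.33 (SE 0.41; adjusted p = 0.0952).

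Kcnj4, the most abundant inward rectifier of the set, had 10.96 and 9.56 CPM in the wild-type libraries, against 10.7 and 14.7 in the Npas3-/- libraries, and the genotypes overlapped (log2 fold change 0.31, SE 0.30; adjusted p = 0.463). Kcnj14 had 2.399 and 2.43 CPM in the wild-type libraries, against 2.55 and 2.84 in the Npas3-/- libraries (log2 fold change 0.16, adjusted p = 0.766). The sign of both turned with the correction, to -0.52 and -0.42, so that no direction can be given for them. The coding sequences of these 4 genes are shown because the 2 that moved in opposite directions encode close relatives with unlike base composition. Kcnj2 and Kcnj12 were identical at 921 of 1266 aligned coding bases (72.7%), and at the 345 differing positions Kcnj2 has G or C at 123 and Kcnj12 at 244. GC content was 41.2% over the Kcnj2 transcript, 56.5% over that of Kcnj12, 59.3% for Kcnj4 and 56.5% for Kcnj14. At the wobble position of codons it was 54.8%, 75.0%, 77.6% and 66.9%. A stretch of 120 coding bases from each, 5′ to 3′ (GENCODE M21, sense strand), has the 42 positions at which the 4 genes are not all alike in capitals:
Kcnj2: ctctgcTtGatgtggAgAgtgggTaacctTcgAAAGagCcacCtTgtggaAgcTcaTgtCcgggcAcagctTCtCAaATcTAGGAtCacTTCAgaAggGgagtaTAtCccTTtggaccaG
Kcnj12: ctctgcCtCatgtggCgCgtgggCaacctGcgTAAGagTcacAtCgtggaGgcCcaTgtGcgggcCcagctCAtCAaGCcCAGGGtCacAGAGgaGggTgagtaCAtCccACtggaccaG
Kcnj4: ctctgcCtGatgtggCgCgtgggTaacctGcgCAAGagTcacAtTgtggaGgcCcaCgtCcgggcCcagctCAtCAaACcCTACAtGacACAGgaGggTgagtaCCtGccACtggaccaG
Kcnj14: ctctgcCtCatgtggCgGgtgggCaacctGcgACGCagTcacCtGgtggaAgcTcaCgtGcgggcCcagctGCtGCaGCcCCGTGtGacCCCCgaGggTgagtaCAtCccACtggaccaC
Of the 42 capitals, G or C make up 14 in Kcnj2, 28 in Kcnj12, 26 in Kcnj4 and 34 in Kcnj14. The Kcnj2 stretch starts at coding base 622 and that of Kcnj12 at 625. Kcnj2 thus has the lowest GC content of the 4 by each of these measures.

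The other inward rectifiers were at low levels. Kcnj15, a channel gene of the Kir4 type, had 166 and 404 wild-type counts against 54 and 10 in Npas3-/-, lower in both Npas3-/- libraries but not called by edgeR (log2 fold change -2.98, SE 0.90; adjusted p = 0.0537). DESeq2 called it lower (adjusted p = 0.00388), and with the correction it was at -1.64 (adjusted p = 0.204). Kcnj9, a subunit of G-protein-gated channels, had 17 and 13 wild-type counts against 60 and 20 in Npas3-/- (1.57; adjusted p = 0.228, and 1.18 with the correction). Kcnj16, which can assemble with Kcnj10 in glia, had 295 and 125 wild-type counts against 108 and 109 in Npas3-/-; it was chosen after its values were seen. Wild-type replicate 1 alone was high for Kcnj16, the log2 fold change of -0.78 was not called by edgeR or DESeq2, and the correction turned its sign (0.86).

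Voltage-gated genes, whose channels open on depolarization, numbered 30 tested, of which 2 rose (6.67%) and 7 fell (23.3%). The shares over all tested genes were 11.6% and 21.5%. Kcnc1 was among those lower in both fits. Kcnc1 (ENSMUSG00000058975.7, chromosome 7, 46396497 to 46438704, plus strand) had 91.9 and 109.99 CPM in the wild-type libraries, against 49.8 and 45.3 in the Npas3-/- libraries. The groups were well apart, and the mean fell from 101 ± 12.8 to 47.6 ± 3.19 CPM, to 47.1% of wild type (log2 fold change -1.09, SE 0.20; adjusted p = 0.0197). With the correction it was almost the same (-1.05, SE 0.17; adjusted p = 0.0282).

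Of the Shaker-type genes, Kcna2 (ENSMUSG00000040724.5, chromosome 3, 107101146 to 107115005, plus strand) had 4.49 and 14.4 CPM in the wild-type libraries, against 0.929 and 0.545 in the Npas3-/- libraries. The wild-type libraries differed from each other by more than 3-fold, yet both were above both Npas3-/- libraries (log2 fold change -3.68, SE 0.70; adjusted p = 0.0204). The call was lost with the correction (-1.77; adjusted p = 0.0734). Kcna3, known from lymphocytes and microglia, had 21 and 46 wild-type counts against 0 and 0 in Npas3-/-, at least 9.68-fold lower against a floor of 3 counts per library (adjusted p = 0.0321, and 0.0508 with the correction). Summed microglial markers were not lower in Npas3-/-, with 47.4 and 49.1 CPM in wild type and 70.6 and 71.3 in Npas3-/-, and none of 10 tested was called either way by edgeR or DESeq2, with 2 at an unadjusted p below 0.05 in edgeR, both higher. Kcna6 was the most abundant Shaker-type gene, with 22.5 and 25.2 CPM in the wild-type libraries, against 31.6 and 30.97 in the Npas3-/- libraries (log2 fold change 0.39, adjusted p = 0.216, and 0.57 with the correction). It shares exon sequence with the small gene Gm26673, and whether the counting used strand is not given, so its counts are uncertain. The 4 further called genes were chosen after their values were seen. Kcna5, a delayed rectifier, rose from 28 and 16 counts to 86 and 102. The silent subunit gene Kcns3 fell from 185 and 358 counts to 60 and 24, Kcnh5 of the ether-a-go-go family from 165 and 306 to 56 and 16, and Kcnq5 of the M-current family from 330 and 384 to 87 and 23. None of these 4 was called with the correction.

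Kcnh3, a channel gene of the Elk type, was the other voltage-gated gene that rose, with 1.45 and 2.04 CPM in the wild-type libraries, against 5.299 and 6.03 in the Npas3-/- libraries (log2 fold change 1.70, SE 0.38; adjusted p = 0.0282). It was not called with the correction (1.12; adjusted p = 0.108). Kcnf1, which forms no channel alone but modifies others, had 23.03 and 11.6 CPM in the wild-type libraries, against 29.9 and 27.4 in the Npas3-/- libraries, with wild-type replicate 2 lowest (log2 fold change 0.73, adjusted p = 0.18, and 0.69 with the correction). Wild-type replicate 2 alone was high for Kcnd3, an A-type channel gene chosen after its values were seen, with 1412 and 7321 wild-type counts against 572 and 863 in Npas3-/- (log2 fold change -2.38). Kcnd3 was not called by edgeR (adjusted p = 0.0614) but was called lower by DESeq2 (adjusted p = 0.00146), and the corrected value was -1.33 (adjusted p = 0.269). Summed neuronal markers were at 329 and 186 CPM in wild type and 229 and 219 in Npas3-/-. By edgeR 3 of 10 tested fell (30%) and none rose, beside 21.5% and 11.6% of all tested genes. With the correction 1 fell and none rose, and 4 of the 10 had a positive uncorrected log2 fold change. The part of these markers in the lower voltage-gated genes was not tested.

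Two-pore-domain genes encode leak channels that are open at rest. By the edgeR test 1 of 9 tested fell (11.1%) and none rose, beside 21.5% and 11.6% of all tested genes. At an unadjusted p below 0.05 that test had 1 higher and 1 lower, and DESeq2 called 1 each way. Kcnk1 (ENSMUSG00000033998.9, chromosome 8, 125995170 to 126030685, plus strand), of the weakly rectifying TWIK type, had 72.04 and 69.5 CPM in the wild-type libraries, against 73.97 and 71.8 in the Npas3-/- libraries. These 4 values span a narrow range, and the log2 fold change was 0.04 (SE 0.18; adjusted p = 0.873), or -0.22 with the correction. Kcnk2 (ENSMUSG00000037624.15, chromosome 1, 189207930 to 189402273, minus strand), a mechanosensitive TREK channel gene, had 31.8 and 27.4 CPM in the wild-type libraries, against 16.9 and 15.99 in the Npas3-/- libraries. Its mean fell from 29.6 ± 3.14 to 16.5 ± 0.679 CPM (log2 fold change -0.85, SE 0.24; adjusted p = 0.0449). The size was nearly kept with the correction, although the call was not (-0.78, SE 0.19; adjusted p = 0.0622).

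Kcnk10 (ENSMUSG00000033854.10, chromosome 12, 98429437 to 98578310, minus strand), the close TREK relative of Kcnk2, had 84.7 and 73.5 CPM in the wild-type libraries, against 73.5 and 69.8 in the Npas3-/- libraries. The deposited counts gave almost the same level in both genotypes (79.1 ± 7.87 to 71.6 ± 2.603 CPM from wild type to Npas3-/-; log2 fold change -0.14, SE 0.19; adjusted p = 0.591). With the correction it was called higher (1.39, SE 0.23; adjusted p = 0.03). Its transcript has a GC content of 46.5%, and all tested genes between 45% and 50% had a median log2 fold change of -0.61. For Kcnk10 the direction depends on the processing. Kcnk5, an alkaline-activated TASK-type channel gene, had 7.71 and 5.34 CPM in the wild-type libraries, against 12.5 and 14.2 in the Npas3-/- libraries, higher in both Npas3-/- libraries but not called by edgeR (log2 fold change 1.03; adjusted p = 0.0587). DESeq2 called it higher (adjusted p = 0.0108), and the corrected value was 0.67 (adjusted p = 0.147). Kcnk12 of the halothane-inhibited type had 77 and 65 wild-type counts against 155 and 110 in Npas3-/- (1.08; adjusted p = 0.143), and Kcnk6 of the TWIK type 44 and 35 wild-type counts against 17 and 9 in Npas3-/- (-1.42; adjusted p = 0.236). Their corrected values were 0.55 and -1.30.

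Of the 8 genes of calcium- or sodium-activated channels and their relatives, 3 fell (37.5%) and none rose by edgeR. For all tested genes the shares were 21.5% lower and 11.6% higher. Where the unadjusted p was below 0.05 in edgeR, 2 of the 8 were higher and 3 lower. By DESeq2 1 rose and 3 fell. The 8 include Kcnu1, a relative of Kcnma1 whose channel is gated by voltage and alkaline pH, with 38 and 66 wild-type counts against 29 and 24 in Npas3-/- (log2 fold change -0.77, or 0.40 with the correction, in neither case called). Kcnn3 (ENSMUSG00000000794.9, chromosome 3, 89520164 to 89675132, plus strand) encodes a small-conductance channel opened by calcium through calmodulin and was the most abundant of them in wild type. It had 46.7 and 69.8 CPM in the wild-type libraries, against 13.5 and 8.96 in the Npas3-/- libraries. The 2 genotypes were far apart, and the mean fell from 58.2 ± 16.3 to 11.2 ± 3.197 CPM, to 19.3% of wild type (log2 fold change -2.37, SE 0.34; adjusted p = 0.0135). Its GC content is 55.7%, and all tested genes between 55% and 60% were at a median of 0.73 on the log2 scale. With the correction the difference of Kcnn3 was larger (-2.86, SE 0.38; adjusted p = 0.0246). Kcnn3 went from place 7 to place 22 of the 75 by level per kilobase of merged exons. Its place depends on the length used. Per kilobase of the longest protein-coding transcript it was at 20.2 in wild type and 3.89 in Npas3-/-.

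The sister gene Kcnn1 pointed the other way, with 7.49 and 9.27 CPM in the wild-type libraries, against 15.5 and 16.9 in the Npas3-/- libraries, higher in both Npas3-/- libraries and just outside the threshold in edgeR (log2 fold change 0.95, SE 0.28; adjusted p = 0.0505). DESeq2 called Kcnn1 higher (adjusted p = 0.00864), and with the correction it was at 0.56 (adjusted p = 0.203). Kcnt1, a sodium-activated channel gene, had 4.62 and 7.71 CPM in the wild-type libraries, against 8.45 and 6.403 in the Npas3-/- libraries, with overlapping groups (log2 fold change 0.27, or 0.24 with the correction). Its relative Kcnt2 had 40 and 234 wild-type counts against 4 and 0 in Npas3-/- and fell (adjusted p = 0.0379), with wild-type replicate 2 far above replicate 1. With the correction the adjusted p was 0.14. Kcnma1, the pore of the large-conductance calcium-activated channel, was scarce in these cells, with 20 and 23 wild-type counts against 0 and 0 in Npas3-/-. That is at least 6.27-fold lower against the floor (adjusted p = 0.0385, and 0.119 with the correction).

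Auxiliary subunits tune the gating, trafficking or assembly of the pores, and of 11 tested genes 2 rose and 3 fell. That is 18.2% and 27.3%, beside 11.6% and 21.5% of all tested genes. Kcne1l (ENSMUSG00000090122.3, chromosome X, 142304752 to 142306294, minus strand) belongs to the single-pass KCNE family, which modulates voltage-gated channels. It had 41.8 and 43.4 CPM in the wild-type libraries, against 16.7 and 18.4 in the Npas3-/- libraries. Replicates differed little, and the mean fell from 42.6 ± 1.06 to 17.5 ± 1.19 CPM, to 41.2% of wild type (log2 fold change -1.28, SE 0.22; adjusted p = 0.017). With the correction the fall was larger (-2.18, SE 0.21; adjusted p = 0.0246). Kcnab2 (ENSMUSG00000028931.11, chromosome 4, 152390742 to 152477871, minus strand) encodes a beta subunit of Shaker-type channels with the fold of an aldo-keto reductase. It had 16.6 and 16.4 CPM in the wild-type libraries, against 46.4 and 51.8 in the Npas3-/- libraries. Both Npas3-/- libraries lay well above both wild-type libraries, and the mean rose from 16.5 ± 0.174 to 49.1 ± 3.82 CPM (log2 fold change 1.57, SE 0.22; adjusted p = 0.0134). It was called higher with the correction too (1.13, SE 0.17; adjusted p = 0.0274).

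Kcnab1, a second beta subunit gene, went opposite to Kcnab2 in the uncorrected fit, with 3.34 and 4.41 CPM in the wild-type libraries, against 1.06 and 1.05 in the Npas3-/- libraries (log2 fold change -1.87, SE 0.41; adjusted p = 0.0263). Most of that difference was gone with the correction (-0.39; adjusted p = 0.508), and its GC content is 44.4% beside 58.03% for Kcnab2. Kcnmb4 (ENSMUSG00000054934.10, chromosome 10, 116417861 to 116473878, minus strand), the neural beta subunit of the channel that Kcnma1 forms, had 2.42 and 2.39 CPM in the wild-type libraries, against 7.39 and 15.1 in the Npas3-/- libraries. It was uniform in wild type and uneven in Npas3-/-, and its mean rose from 2.41 ± 0.02002 to 11.2 ± 5.46 CPM (log2 fold change 2.22, SE 0.45; adjusted p = 0.0226). The corrected value was 1.16 and was not called (adjusted p = 0.0729). Antisense genes lie on it over 1048 exon bases, one of which (Kcnmb4os2) had 35 and 17 wild-type counts against 92 and 96 in Npas3-/-. Since the strand setting of the counting is not given, reads of the sense and antisense genes cannot be told apart. In this pair the pore gene had no count in Npas3-/- while the beta subunit gene was higher. The pore gene had only 20 and 23 wild-type counts, and neither gene was called with the correction.

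Kcnip3, a calcium-binding partner of A-type channels that is also a transcriptional repressor, had 16.5 and 20.6 CPM in the wild-type libraries, against 21.4 and 21.2 in the Npas3-/- libraries (log2 fold change 0.20, SE 0.25; adjusted p = 0.562), and the correction turned its sign (-0.25). Its relative Kcnip4 had 29 and 63 wild-type counts against 0 and 0 in Npas3-/-, at least 13.3-fold lower (adjusted p = 0.0263, and 0.0699 with the correction). An opposite-strand gene, 5730480H06Rik, overlaps it and kept 429 and 541 counts in the libraries in which Kcnip4 had none.

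The genes that rose and those that fell differed in GC content, with overlapping ranges. The 5 that rose had a median transcript GC of 58.0% (54.3% to 63.2%), the 15 that fell 47.7% (36.6% to 60.3%), and the 47 not called 54.7%. Over the 67 tested channel genes the log2 fold change and GC content had a Spearman rho of 0.55, given as a description, since the genes share the same 4 libraries. Below 50% GC none of 22 genes rose and 9 fell by the edgeR test. Of these 22, the edgeR test had 0 higher and 14 lower with an unadjusted p below 0.05, and by DESeq2 0 rose and 15 fell. Of all 9138 tested genes below 50% GC, 2.35% were called higher and 40.8% lower by edgeR, so the channel genes were near the background there. With the correction 1 of the 22 was called higher, Kcnk10, and none lower (7 lower at an unadjusted p below 0.05), beside 8.63% and 4.33% of all genes in that range. From 55% upward 4 of 32 rose and 5 fell, beside 26.9% and 0.877% of all tested genes. Fewer rose and more fell there than at those shares, which was not tested. With the correction 1 of 23 was called higher and 4 lower between 55% and 60% GC, and none of 9 above 60%. The corrected shares of all genes were not computed for that range. Kcne1l, Kcnn3, Kcnc1 and Kcnab2 lie at that side. GC content also ran with the difference between the 2 wild-type libraries (rho -0.39) and between the 2 Npas3-/- libraries (rho 0.30), which share a genotype. Of the 15 genes that fell, 13 were higher in wild-type replicate 2 than in replicate 1, and of the 5 that rose 4 were lower there. The same held for 84.1% of all genes called lower and 83.5% of all called higher, close to the shares in the channel genes. The part of this trend in any single difference was not tested beyond the correction.

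**Figure D4:**
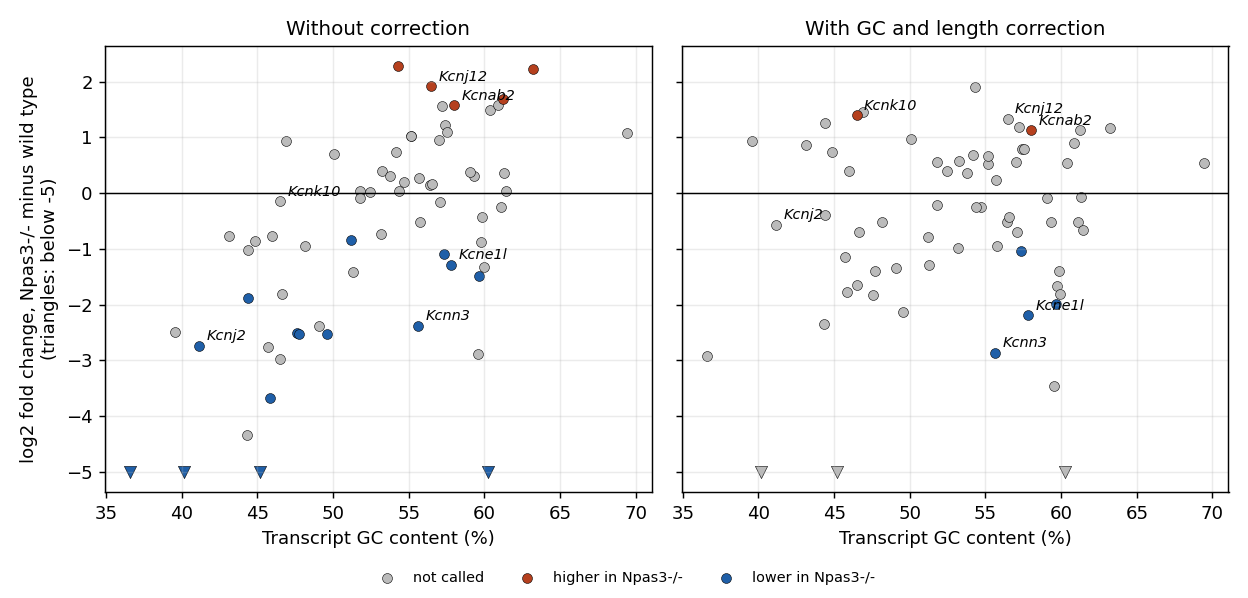
Log2 fold change of the 67 tested channel genes (Npas3-/- minus wild type) against transcript GC content in percent, without the correction (left) and with it (right), coloured by the call at an adjusted p below 0.05; triangles are genes below -5, drawn at -5. Left, the lower calls gather at low GC content and the higher calls above 54%; right, the rho of 0.55 is 0.09, and Kcnn3, Kcne1l and Kcnab2 remain called.

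Npas3 and its bHLH-PAS partners are known to bind sites with the core ACGTG. That core was searched on both strands in the 250 bases before the RefSeq start, a window found in the RefSeq table for 56 of the 75 channel genes. It occurred in 8 of the 56 (14.3%) and in 4467 of 27025 windows of all genes (16.5%). Among genes that fell it was in 1 of 14 windows, that of Kcnj2, and among genes that rose in 1 of 4. Of the genes called the same way in both fits, Kcnc1 and Kcnn3 are shown because their windows hold no annotated exon. Kcnj2 was added by hand to these. It is the only gene that fell with the core in its window, and it was not called with the correction. Its window holds no annotated exon either. The windows are given 5′ to 3′ with the core in capitals (RefSeq starts, GRCm38.p6, all on the plus strand):
Kcnj2, chr11:111065914-111066163: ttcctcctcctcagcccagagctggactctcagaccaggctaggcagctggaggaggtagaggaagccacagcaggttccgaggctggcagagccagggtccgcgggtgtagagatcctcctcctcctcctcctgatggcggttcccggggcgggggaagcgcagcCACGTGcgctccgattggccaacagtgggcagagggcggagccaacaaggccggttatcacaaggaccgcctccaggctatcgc
Kcnc1, chr7:46396218-46396467: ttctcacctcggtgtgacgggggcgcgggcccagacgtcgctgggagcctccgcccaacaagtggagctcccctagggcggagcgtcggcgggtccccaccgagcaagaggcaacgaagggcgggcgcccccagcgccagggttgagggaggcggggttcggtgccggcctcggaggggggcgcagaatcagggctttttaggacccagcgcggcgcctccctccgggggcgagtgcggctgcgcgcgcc
Kcnn3, chr3:89519914-89520163: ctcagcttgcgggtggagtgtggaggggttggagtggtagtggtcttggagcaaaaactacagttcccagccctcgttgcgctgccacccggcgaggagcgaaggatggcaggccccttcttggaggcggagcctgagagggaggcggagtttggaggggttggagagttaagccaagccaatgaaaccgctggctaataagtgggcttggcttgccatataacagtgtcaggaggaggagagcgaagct
In Kcnj2 the 2 matches, 1 on each strand, overlap in a single palindrome. No capitals in the other windows says only that these letters are not there, and a match is not a bound site.

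Genes whose proteins anchor, traffic or assemble potassium channels were read from a list of 23, of which 18 were tested. By the edgeR test 1 rose and 7 fell (44.4% called, beside 33.1% of all tested genes), with a median log2 fold change of -1.40. Dlg1, a PDZ scaffold that binds Shaker-type and Kir channels, fell from 87.2 ± 11.99 to 26.3 ± 0.945 CPM (-1.73; adjusted p = 0.0130). Vapa, an endoplasmic reticulum protein that tethers Kv2 channels to the plasma membrane, fell from 156 ± 8.08 to 68.6 ± 3.22 CPM (-1.18), and Adam22, a partner of Kv1 complexes, from 67.8 ± 17.8 to 17.3 ± 4.70 CPM (-1.97). The median GC content of these genes was 46.4%, and with the correction 5 were called higher and none lower by edgeR, with 6 higher and 1 lower at an unadjusted p below 0.05 and a median of 0.30. Those 5 are 27.8% of the tested partners, beside 8.79% of all tested genes. Dlg1, Vapa and Adam22 changed sign, to 0.33, 0.59 and 0.05, so no direction can be given for these 3 genes.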

How the data were processed

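The data were 4 bulk RNA-seq libraries, 2 wild type and 2 Npas3-/-, with total counts of 82965565 to 86932708. The authors deposited 1 table of raw counts per Ensembl gene, and the submitters' processing notes name HISAT2 2.1.0, Trimmomatic 0.3.8, featureCounts and the build mm10. The sources used here do not give the annotation release, the strand setting or the treatment of shared reads. Of the 75 channel genes, 25 share exon bases with another gene, 23 of them with one on the opposite strand. Kcnma1 (1016 bases) and Kcnk2 (604 bases) are among these 23. The limit given for Kcna6 and Kcnmb4 thus holds for other genes too.

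Symbols, GC content and lengths came from GENCODE M21, which matched 53274 of 53379 genes. Genotypes were compared in edgeR 4.0.16 (R 4.3.3) by the quasi-likelihood test with TMM scaling, filterByExpr at a minimum count of 10, no covariate, 2 residual degrees of freedom and Benjamini-Hochberg adjustment over 18838 genes at 0.05. Log2 fold changes are Npas3-/- minus wild type with their SE, and means have their SD at n = 2. The correction fitted, per library, natural splines with 6 degrees of freedom in GC content and log2 length. Folds against 0 used 3 counts per library, for counting error only.

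The channel genes, lists and tests were chosen with earlier results of these data known. Named were, per subunit type, the 4 tested genes with the smallest p and the 3 with the highest level, genes called in both fits, genes at 0 to 3 counts in one genotype and at least 10 in each library of the other, and the 3 partners with the smallest p. 1 gene that this rule names is not reported here. DESeq2 1.42.0, limma-voom (limma 3.58.1), other filters, thresholds and left-out libraries were alternatives. Scripts were tested on simulated data. Protein sequences were not used here.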

Additional observations from a re-analysis of the deposited data

How the results depend on the processing

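With 2 libraries per genotype and 2 residual degrees of freedom, small differences and genes of few counts could not be resolved, and 8 channel genes were too low to test. The 20 channel genes called kept their call and direction with DESeq2 size factors and in the DESeq2 test, which called 10 more. Of the 6 called with the correction, 5 were also called without it. Apart from the values below, no alternative run turned the direction of a gene that the naming rule gives. Genes named outside that rule were read in the main, DESeq2 and corrected fits only.

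Among the 67 tested channel genes the calls were 5 higher and 15 lower. They were 3 and 8 with no filter on low counts, 9 higher in the DESeq2 test, 2 and 8 in a test against a fold of 1.5, and 2 and 4 with the GC and length correction. At an adjusted p below 0.01 edgeR called 0 and 0, the smallest adjusted p being 0.0134 among channel genes, with 30 of them at an unadjusted p below 0.05 and 22 below an adjusted 0.01 in DESeq2. Leaving out each replicate in turn gave 0 to 6 higher and 0 to 12 lower, and with the correction 0 to 3 and 0 to 6. Their median log2 fold change was -0.44 with no filter, -0.12 with a filter of 1 CPM, -0.39 with the correction and -0.46 with the correction fitted on genes of at least 1 CPM, an alternative chosen after seeing the data. With a replicate left out it was -0.59 to -0.15, and with the correction -0.40 to -0.22.

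Among all tested genes the calls of 2188 higher and 4044 lower became 1018 higher with no filter and 3524 higher in the DESeq2 test. In the test against a fold of 1.5 they were 404 and 2568, with the correction 1076 and 580, and below an adjusted p of 0.01 0 and 0, with 9024 at an unadjusted p below 0.05. Without one replicate they were 0 to 2005 and 0 to 3827, and with the correction 0 to 1527 and 0 to 594. For the channel partners, with 1 higher and 7 lower, the higher calls were 2 with DESeq2 size factors, the filter of 1 CPM, DESeq2 or limma-voom. They were 0 with no filter, at 0.01 or against a fold of 1.5, and 5 with the correction, and the lower calls were 0 at 0.01 and with the correction. Leaving out a replicate gave 0 to 1 higher and 0 to 9 lower, and with the correction 0 to 5 higher.

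The correction turned the sign of Kcnip3 (-0.25), Kcnj4 (-0.52), Kcnj14 (-0.42), Kcnk1 (-0.22), Kcnk10 (1.39), Dlg1 (0.33), Vapa (0.59) and Adam22 (0.051), and outside the rule that of Kcnj16 (-0.78 to 0.86) and Kcnu1 (-0.77 to 0.40). Leaving out a replicate put Kcnt1 between -0.073 and 0.67, and in the corrected fit Kcnip3 between -0.45 and 0.039, Kcnt1 between -0.091 and 0.71 and Kcnj2 between -1.10 and 0.25. Why these values move was not tested beyond the construction of the correction.

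The replicate numbers are shared by the genotypes, but the labels do not tie a number to a shared animal, culture or day. The deviations of same-numbered libraries had a Pearson r of -0.16 across 18838 genes, which are not independent, and this was not computed after the correction, so whether the numbers mark a shared batch was not settled and they were not used as pairs. With the replicate block the channel genes had 2 higher and 4 lower calls, of which 5 were among the 20, all genes 314 and 2246, and the partners 0 higher. With the replicate block and the GC and length correction together, all genes had 367 lower calls and the partners 3 higher. A crossed pairing, added after seeing the data, gave 7 higher and 14 lower channel genes, 3336 higher over all genes and 3 higher partners.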

Other observations

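Several channel genes lie beside each other in the genome, and neighbours did not always differ the same way. On mm10 chromosome 3, Kcna3 and Kcna2 are 63.1 kb apart and both fell. Kcnc4, 323.3 kb beyond Kcna2, had a log2 fold change of -2.89 (SE 1.53) that was not called by edgeR. That value rests on 21 and 24 wild-type counts against 0 and 5 in Npas3-/-. On chromosome 11, Kcnj2, which fell, is 38.2 kb from Kcnj16 (-0.78, or 0.86 with the correction, neither called). On chromosome 1, Kcnj9 lies 11.9 kb from Kcnj10, with a log2 fold change of 1.57 (not called) beside -2.29 for Kcnj10. On chromosome 6, Kcna5 rose, while Kcna1 (0.70, SE 2.14) and Kcna6 (0.39), within 172.9 kb of it, were not called. Kcna1 had 0 and 11 wild-type counts against 16 and 0 in Npas3-/-, so no direction can be given for it. None of Kcnc4, Kcnj16, Kcnj9, Kcna1 and Kcna6 was called by DESeq2 either. These genes were chosen for position, and the differences between neighbours were not tested.

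The libraries of a genotype differed from each other by more than 2-fold in 16 of the 67 tested channel genes in wild type and in 16 in Npas3-/-. A total of 10 channel genes, 4 higher and 6 lower, were called by DESeq2 but not by edgeR. Over all tested genes DESeq2 called 44.4% and edgeR 33.1%. How many of all tested genes only DESeq2 called, or differed by more than 2-fold between replicates, was not computed. These counts are therefore no result about channel genes.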
